A study of Mus musculus with 24 samples.

Results

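Cxcl9, Cxcl10 and Cxcl11 encode the 3 ELR-negative CXC chemokines that signal through the receptor Cxcr3. The 3 genes were chosen from measured values of these libraries, and are the 3 of 22165 rows of the gene count table whose Ensembl identifiers carry those symbols in GENCODE M21. Their levels and differences are therefore given as a description with standard errors and without p-values. Where the fit over all genes put them past its threshold, this is stated as a description beside the share of all genes and is no evidence for them. The other gene lists below were tested. They too were chosen with earlier results of these data known, so their p-values are not independent evidence.

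RNA was measured in mouse bone marrow-derived macrophages, which are bone marrow cells cultured with M-CSF (20 ng/ml, 7 days), from wild type (WT) C57BL/6N mice and from Irg1-/- mice on the same background, aged 8 to 20 weeks. Irg1, listed under the symbol Acod1, encodes the mitochondrial enzyme that makes itaconate from cis-aconitate. Cells of each genotype were left unstimulated (Unstim.), or received LPS at 100 ng/ml for 3 h (LPS 3h) or 24 h (LPS 24h), or received LPS for 24 h, a change of medium with 1 h of rest and LPS again for 3 h (LPS 24h->LPS 3h, called restimulation here), giving 8 groups of 3 libraries and 24 libraries in all. The LPS 3h cultures went through the same handling without the first dose. The cultures of a group are described as independent, so each p-value measures the spread between cultures, and whether each came from a separate mouse is not given in the sources used here.

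Cxcl9, Cxcl10 and Cxcl11 are known as interferon-inducible attractants of activated T cells and NK cells, the main cells that carry Cxcr3. Cxcl9 is the member most dependent on interferon gamma, while Cxcl10 and Cxcl11 also answer to type I interferon, through Stat2 and Irf9, and to other interferon regulatory factors. In macrophages, LPS binds Tlr4, which signals through the adaptors Ticam2 and Ticam1 to the kinases Tbk1 and Ikbke and to Irf3, and the interferon beta made in this way acts back on the cells through the receptor Ifnar.

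The 3 genes lie side by side on the minus strand of chromosome 5, within 44.1 kb. In mm10 (GRCm38) Cxcl9 (ENSMUSG00000029417.9) spans chr5:92321347-92328079, Cxcl10 (ENSMUSG00000034855.13) spans chr5:92346638-92348889 and Cxcl11 (ENSMUSG00000060183.6) spans chr5:92359544-92365485. The 250 bases before the start of transcription are shown for Cxcl9 and Cxcl10, the 2 of the 3 genes with an entry in the RefSeq promoter table for GRCm38.p6, since the 2 genes parted after prolonged LPS. Both are written on the strand of the gene, the first at chr5:92328080-92328329 and the second at chr5:92348890-92349139, and capitals mark matches to 4 motifs.
Cxcl9: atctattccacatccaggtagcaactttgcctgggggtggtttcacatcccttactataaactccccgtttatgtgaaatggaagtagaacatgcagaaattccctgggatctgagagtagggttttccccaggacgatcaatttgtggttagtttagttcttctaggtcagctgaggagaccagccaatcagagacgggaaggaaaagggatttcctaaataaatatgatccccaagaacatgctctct
Cxcl10: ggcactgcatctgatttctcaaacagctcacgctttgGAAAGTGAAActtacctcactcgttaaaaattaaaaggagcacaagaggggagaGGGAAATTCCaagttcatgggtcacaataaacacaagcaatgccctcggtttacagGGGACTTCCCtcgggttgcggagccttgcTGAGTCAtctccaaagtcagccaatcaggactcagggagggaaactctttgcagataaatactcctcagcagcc

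The motifs searched, on both strands, were the interferon-stimulated response element (ISRE, GAAANNGAAA), the gamma-activated site (GAS, TTCNNNGAA), AP-1 (TGANTCA) and NF-kappaB by its usual consensus. The Cxcl10 window held an ISRE match (GAAAGTGAAA) from 213 to 204 bases before the start, NF-kappaB matches from 159 to 150 (GGGAAATTCC) and from 103 to 94 (GGGACTTCCC), and an AP-1 match (TGAGTCA) from 74 to 68. The Cxcl9 window held none of the 4, which says only that these letters are not in these 250 bases. Of 32851 promoter windows of that length, 2.98% held the ISRE letters, 7.02% the GAS letters, 6.75% the AP-1 letters and 3.90% an NF-kappaB match. A match is a description of letters and not a site shown to be bound.

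The annotation calls Cxcl11 a polymorphic pseudogene, so the reading frame of its first coding exon is shown as the reference genome (GRCm38) gives it, on the minus strand at chr5:92363155-92363214. The transcript model annotated as protein coding leaves out 2 bases at chr5:92363177-92363178 that the model annotated as polymorphic pseudogene keeps, and the capitals mark these bases. Without them the frame runs to a stop at codon 100, and with them it stops at codon 37.
Cxcl11, protein-coding model: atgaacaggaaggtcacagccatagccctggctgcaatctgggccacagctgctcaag
Cxcl11, pseudogene model: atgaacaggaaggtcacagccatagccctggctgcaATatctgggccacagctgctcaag

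The reference is of the strain C57BL/6J, and the bases present in the mice used were not read here. The counts of Cxcl11 thus measure RNA and say nothing of the protein. A further 1582 exon bases of Cxcl11 are shared with the annotated gene Gm2673, which has no row in the count table, and 133 bases at the 3′ end of Cxcl10 are shared with Art3 on the other strand, which had 35 counts over the 24 libraries.

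Reads on genes numbered 3927378 to 20430359 per library, and 11240 to 13048 genes had at least 1 count. The targeted gene was read first. Acod1 stood at 22181 ± 6236 normalized CPM (counts scaled to library size; mean ± SD, n = 3 here and below) in WT LPS 3h cells and at 12.0 ± 12.9 in Irg1-/- LPS 3h cells, and it was lower in Irg1-/- cells by log2 values of -10.82, -9.02 and -9.82 in LPS 3h, LPS 24h and restimulated cells (adjusted p = 2.68e-12, 5.85e-11 and 1.33e-11, edgeR's quasi-likelihood test, Benjamini-Hochberg adjusted). In Unstim. cells Acod1 was low in both genotypes, at 8.42 ± 2.28 and 9.77 ± 2.04 CPM. All 6 macrophage markers (among them Adgre1, Csf1r and Cd68) were present, with a summed level between 2998 and 9645 CPM and ranges of the sum that overlapped between genotypes under every treatment. By group mean the largest part of the sum was Lyz2 (2733 to 5516 CPM). Mertk did not overlap between genotypes in Unstim. cells (365 ± 53.7 CPM in WT, 524 ± 129 CPM in Irg1-/-), where it did not pass the threshold. Of 3 dendritic cell markers the sum was at most 2.99 CPM and Cd209a had 0 counts. The labels carry a prefix before each library's barcode, with 4 values, whose meaning they do not state and which is treated here as a possible batch. The 6 Unstim. libraries shared prefix 4 and the 3 Irg1-/- LPS 24h libraries shared prefix 1, while each LPS-treated WT group had libraries in prefixes 1, 2 and 4. Irg1-/- LPS 3h libraries, in prefixes 2 and 3, shared none with Irg1-/- Unstim. or Irg1-/- LPS 24h libraries, so for these steps prefix and treatment cannot be told apart.

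First, the response to LPS for 3 h was examined. The LPS 3h cultures had a change of medium and 1 h of rest before LPS, which is not recorded for the Unstim. cultures. That handling and LPS cannot be told apart in this step. All 3 chemokines were between 0 and 13.4 CPM in Unstim. cells and between 525 and 13719 CPM after LPS 3h in both genotypes. In bulk RNA, a change in the number of responding cells and a change in RNA per cell cannot be told apart, here and in all results below. Levels are for comparison across groups within a gene, and not between genes.

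Cxcl9 stood at 0.129, 0.191 and 0.0975 CPM in the 3 WT Unstim. libraries (2 reads each) and at 727, 1252 and 665 CPM after LPS 3h. In Irg1-/- cells it stood at 1.25, 0 and 0.375 CPM unstimulated (8, 0 and 7 reads) and at 948, 556 and 873 CPM after LPS 3h. Every LPS 3h library lay above every Unstim. library of its genotype, with a log2 difference of 12.61 (SE 0.70) in WT and 10.56 (SE 0.64) in Irg1-/- cells. Since these rest on 6 and 15 unstimulated reads, the ratio of summed levels carries wide counting intervals: 7063 (95% interval 3244 to 19247) and 1651 (1001 to 2951). The library kit as described counts no unique molecules, so such intervals cover counting error only.

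Cxcl10 was measured at 4.96, 2.86 and 9.56 CPM in WT Unstim. libraries and at 13719, 10722 and 9905 CPM in WT LPS 3h libraries. The Irg1-/- libraries stood at 13.4, 12.4 and 10.7 CPM unstimulated and at 11898, 9234 and 9086 CPM after LPS 3h. The groups did not overlap, and the log2 differences were 10.92 (SE 0.53) in WT and 9.70 (SE 0.50) in Irg1-/- cells, which as ratios of summed levels came to 1719 (1536 to 1930) and 897 (808 to 999).

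Cxcl11 was at 0.0644, 0 and 0.293 CPM in WT Unstim. libraries (1, 0 and 6 reads) and at 572, 525 and 653 CPM after LPS 3h. In Irg1-/- libraries it was at 0, 0.942 and 1.23 CPM (0, 5 and 23 reads) and then at 623, 578 and 982 CPM. Again no libraries overlapped, with log2 differences of 11.87 (SE 0.71) and 9.76 (SE 0.63) and ratios of 3864 (1875 to 9613) and 764 (529 to 1151). In this comparison 32% of the 11878 genes tested in WT cells and 35.9% in Irg1-/- cells passed the threshold of 0.05 on the adjusted p, and all 3 chemokines were among them in both genotypes, a count that the choice of the genes used.

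**Figure D1:**
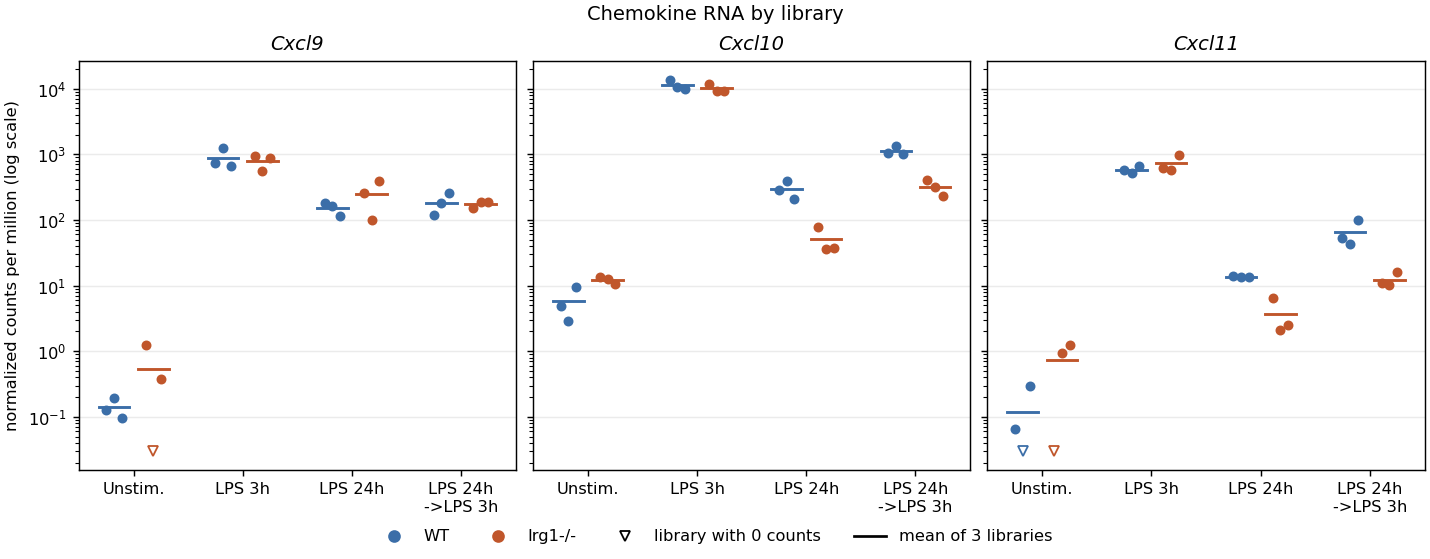
Normalized CPM (log axis) of Cxcl9, Cxcl10 and Cxcl11 in each of the 24 libraries, by treatment and genotype, with a line at the mean of 3 libraries and open triangles for libraries with 0 counts. Cxcl10 and Cxcl11 of the Irg1-/- libraries sit below those of the WT libraries after LPS 24h and after restimulation, while Cxcl9 overlaps between genotypes under all 4 treatments.

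Next, LPS 24h was compared with LPS 3h. The LPS 3h cultures had a change of medium and 1 h of rest before LPS, which the LPS 24h cultures did not. This handling and the length of LPS cannot be told apart. All 3 chemokines were lower at 24 h in both genotypes with no overlap between libraries, but by unequal amounts: Cxcl9 kept a larger share of its 3 h level than the other two. Cxcl9 stood at 183, 164 and 114 CPM in WT and at 262, 101 and 388 CPM in Irg1-/- LPS 24h libraries, which is 17.4 ± 4.03% and 31.6 ± 18.2% of the mean level of the same genotype at LPS 3h. The log2 differences were -2.52 (SE 0.42) and -1.66 (SE 0.41). The Irg1-/- value spans the widest range of the 3 cultures, from the lowest to the highest Cxcl9 level of the 6 LPS 24h libraries.

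Cxcl10 stood at 288, 392 and 209 CPM in WT LPS 24h libraries, or 2.59 ± 0.80% of the LPS 3h level. In Irg1-/- libraries it stood at 79.3, 35.8 and 38.0 CPM, or 0.506 ± 0.244%. The log2 differences from LPS 3h were -5.27 (SE 0.41) and -7.63 (SE 0.46). Every Irg1-/- library was therefore below the lowest WT library.

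Cxcl11 was tightly grouped in WT cells at 13.9, 13.3 and 13.7 CPM, or 2.34 ± 0.049% of the LPS 3h level. In Irg1-/- cells it was at 6.49, 2.10 and 2.46 CPM, or 0.507 ± 0.335%. The log2 differences were -5.42 (SE 0.50) and -7.63 (SE 0.56), close to those of Cxcl10 in each genotype. Of all genes, 32.3% in WT and 35% in Irg1-/- cells passed the threshold here, as did all 3 chemokines. With the label prefix as a term, Cxcl9 no longer passed it in Irg1-/- cells.

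Restimulation asks how cells that have already seen LPS answer a further dose. Restimulated cultures also differed from LPS 24h cultures by a change of medium, 1 h of rest and more time in culture. No group had this handling after LPS 24h without the second dose, so its part cannot be told apart from that of LPS. Cxcl10 and Cxcl11 stood above their LPS 24h levels in every library of both genotypes, whereas Cxcl9 did not separate from its LPS 24h level in either. In restimulated libraries Cxcl10 stood at 1029, 1316 and 1014 CPM in WT and at 412, 323 and 232 CPM in Irg1-/- cells, with log2 differences from LPS 24h of 1.92 (SE 0.36) and 2.66 (SE 0.37). Cxcl11 stood at 52.2, 42.7 and 98.4 CPM in WT and at 10.9, 10.2 and 16.0 CPM in Irg1-/- cells, with differences of 2.24 (SE 0.44) and 1.75 (SE 0.45). Cxcl9 stood at 117, 182 and 254 CPM and at 155, 189 and 185 CPM, and its differences from LPS 24h, 0.26 (SE 0.40) and -0.51 (SE 0.40), came with overlapping libraries. Here 3.99% of all genes in WT and 5.14% in Irg1-/- cells passed the threshold, against 2 of the 3 chemokines in each genotype. For Cxcl11 in Irg1-/- cells, 3 of 6 fits that left out 1 library kept it past the threshold: it was lost without Irg1-/- LPS 24h replicate 2 or 3 or without restimulated replicate 3.

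None of the 3 chemokines came back to the level of LPS 3h. In restimulated WT cells Cxcl9, Cxcl10 and Cxcl11 stood at 20.9 ± 7.78%, 9.78 ± 1.49% and 11.1 ± 5.11% of it, and in Irg1-/- cells at 22.2 ± 2.38%, 3.20 ± 0.893% and 1.70 ± 0.440%. The log2 differences from LPS 3h were -2.26 (SE 0.42), -3.35 (SE 0.38) and -3.18 (SE 0.45) in WT cells. In Irg1-/- cells they were -2.17 (SE 0.42), -4.97 (SE 0.41) and -5.88 (SE 0.51). All libraries lay below those of LPS 3h, and all 3 genes passed the threshold that 25.5% (WT) and 27.2% (Irg1-/-) of all genes passed. The comparisons with LPS 3h and with LPS 24h share libraries and are not separate evidence of one another.

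Some markers of other cells moved with the length of treatment. The summed level of S100a8, S100a9, Ly6g and Mpo was 337 to 610 CPM in Unstim. and LPS 3h libraries and 62.5 to 223 CPM in LPS 24h and restimulated libraries. Nearly all of this was S100a8 and S100a9, and Ly6g and Mpo reached at most 1.66 and 1.80 CPM in a library. The sum of the fibroblast and endothelial markers Col1a1, Col3a1 and Pecam1 was 59 to 119 CPM in the former and 24.8 to 71.1 CPM in the latter, and Col1a1 was lower past the threshold at LPS 24h in WT cells and after restimulation in both genotypes, each against LPS 3h. Of the macrophage markers, Itgam was higher at LPS 24h than at LPS 3h in both genotypes, and in WT cells Adgre1 was higher and Mertk lower. The part of these markers in the results on time was not tested.

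Next, the genotypes were compared within each treatment. At LPS 3h the libraries of the 2 genotypes overlapped for all 3 chemokines, with log2 differences, Irg1-/- minus WT, of -0.15 (SE 0.40) for Cxcl9, -0.18 (SE 0.34) for Cxcl10 and 0.32 (SE 0.41) for Cxcl11. In Unstim. cells the corresponding values were 1.90 (SE 0.84), 1.04 (SE 0.37) and 2.43 (SE 0.76). Of these, Cxcl10 alone had no overlap between genotypes: the 3 Irg1-/- libraries, from 10.7 to 13.4 CPM, lay above the 3 WT libraries, from 2.86 to 9.56 CPM. How many of all genes had no overlap was not counted, here and in the other comparisons, so this is a description only. None of the 3 chemokines passed the threshold at either point, where 0.0421% (Unstim.) and 0.00842% (LPS 3h) of all genes did.

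In the same Unstim. libraries, the 7 markers of T and NK cells summed to 0.955 to 4.93 CPM in WT and 5.30 to 11.3 CPM in Irg1-/- cells. Most of this was Cd4 (2.32 ± 2.09 and 6.91 ± 2.37 CPM), and Cd3e, Cd8a, Klrb1c and Nkg7 were at 0 in all 6 libraries. Cd3d had 9 reads in 1 Irg1-/- library (1.70 CPM) and 0 reads in WT libraries. Ncr1 had 4 reads in WT and 2 in Irg1-/- libraries. The 3 B cell markers summed to 0 to 0.683 CPM and 0.779 to 1.51 CPM. The part of either marker list in the Unstim. difference was not tested.

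After LPS 24h the members parted. Cxcl10 was 5.81-fold lower in Irg1-/- than in WT cells (log2 difference -2.54, SE 0.36) and Cxcl11 was 3.71-fold lower (-1.89, SE 0.45), both without overlap between libraries. Cxcl9 was 0.71 (SE 0.40) higher on the log2 scale, with overlapping libraries and a 95% interval from -0.08 to 1.49. Cxcl10 and Cxcl11 passed the threshold in a comparison where 0.598% of all genes did.

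After restimulation, the genotype difference was -1.80 (SE 0.35) on the log2 scale for Cxcl10, 3.47-fold lower in Irg1-/- cells, and -2.38 (SE 0.44) for Cxcl11, 5.22-fold lower. The Irg1-/- libraries lay below every WT library for both genes. For Cxcl9 the difference was -0.07 (SE 0.40), with overlapping libraries and an interval from -0.85 to 0.72. Cxcl10 and Cxcl11 passed the threshold, as did 0.118% of all genes.

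The difference between genotypes in the step from LPS 24h to restimulation was -0.77 (SE 0.56) for Cxcl9, 0.74 (SE 0.49) for Cxcl10 and -0.49 (SE 0.61) for Cxcl11 on the log2 scale. None of the 3 passed the threshold, which 0.00842% of all genes did (1 gene, with 1029 at an unadjusted p under 0.05 and 55 by DESeq2's Wald test).

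**Figure D2:**
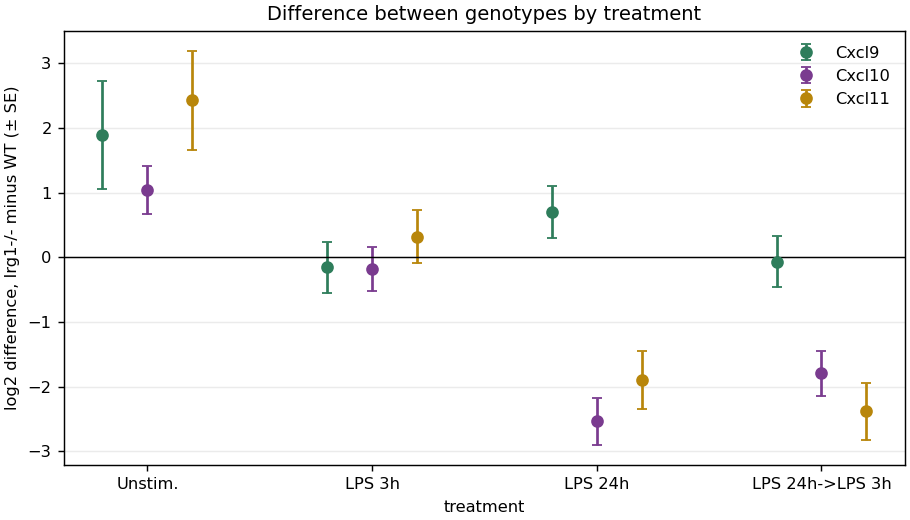
Log2 difference of Irg1-/- minus WT cells for each chemokine under each treatment, with bars of 1 standard error from the fit over all 24 libraries. Cxcl10 and Cxcl11 lie below 0 after LPS 24h (-2.54 and -1.89) and restimulation (-1.80 and -2.38), and Cxcl9 stays near 0 after LPS 3h and restimulation.

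Since the prefixes were not balanced over the groups, the differences were also read within single prefixes, each with 1 WT library and so without a replicate check. In the prefix that held LPS 24h libraries of both genotypes (3 Irg1-/- and 1 WT), the log2 differences were -2.59 for Cxcl10, -2.04 for Cxcl11 and 0.25 for Cxcl9. In the 2 prefixes that held restimulated libraries of both (2 Irg1-/- and 1 WT, and 1 of each), they were -1.91 and -1.67 for Cxcl10, -2.02 and -1.96 for Cxcl11, and 0.68 and -0.23 for Cxcl9.

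The position of these genes relative to the threshold depended on the fit more than their differences did. At LPS 24h Cxcl10 passed it in 7 of 8 other fits, all but the one with the compared groups alone, and in 6 of 6 fits without 1 library, with differences from -2.96 to -2.28. Cxcl11 passed it in 5 of 8 other fits and in 2 of 6 without 1 library, and was lost without WT replicate 2 or 3 or Irg1-/- replicate 2 or 3. After restimulation Cxcl10 passed in 7 of 8 other fits but in 1 of 6 without 1 library, the one without WT replicate 1, with differences from -1.99 to -1.60. Cxcl11 passed in 7 of 8 and in 3 of 6, and was lost without WT replicate 3 or Irg1-/- replicate 1 or 2.

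In restimulated cells the fibroblast and endothelial markers Col1a1, Col3a1 and Pecam1 summed to 38.8 to 43.6 CPM in WT and 24.8 to 35.5 CPM in Irg1-/- libraries, and none of the 3 passed the threshold. Mean Col1a1 and Col3a1 were lower in Irg1-/- cells, and mean Pecam1 was higher (1.80 against 1.03 CPM). The T and NK cell markers summed to 0.804 to 1.81 CPM in WT and 0.609 to 1.15 CPM in Irg1-/- LPS 24h libraries. In restimulated libraries they summed to 0.346 to 5.17 CPM in WT and 0.653 to 0.803 CPM in Irg1-/-, with mean Cd4 at 2.23 and 0.714 CPM. At LPS 24h the fibroblast and endothelial sum was 38.8 to 71.1 CPM in WT and 48.1 to 56.3 CPM in Irg1-/-. Mean Pecam1 was then 2.41 and 4.65 CPM. The part of these markers in the genotype differences was not tested.

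The same counts can be set against one another within a library, which restates the parting without any scaling between libraries. The log2 ratio of Cxcl9 to Cxcl10 reads averaged -3.74 in WT LPS 3h libraries (lowest -4.24, highest -3.10) and -3.69 in Irg1-/- (-4.05 to -3.38). After LPS 24h it averaged -0.93 in WT (-1.26 to -0.66) and 2.19 in Irg1-/- libraries (1.5 to 3.35), so that Cxcl9 reads outnumbered Cxcl10 reads in the 3 Irg1-/- libraries and in none of the WT libraries. After restimulation the averages were -2.66 (-3.14 to -2.0) and -0.84 (-1.41 to -0.33), again with no overlap. The ratio of Cxcl11 to Cxcl10 reads, in contrast, overlapped between genotypes under all 3 LPS treatments: -4.29 and -3.82 on average at LPS 3h, -4.40 and -3.88 at LPS 24h, and -4.20 and -4.70 after restimulation.

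**Figure D3:**
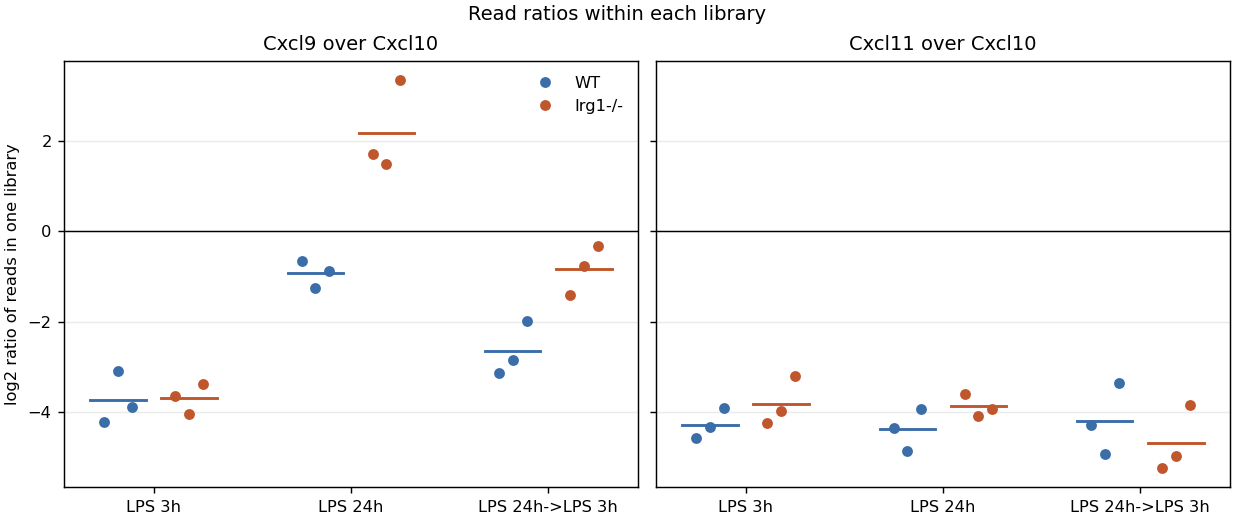
Log2 ratio of reads within each library, Cxcl9 over Cxcl10 on the left and Cxcl11 over Cxcl10 on the right, for the 3 LPS treatments, with a line at the mean of 3 libraries. The Cxcl9 ratio of the Irg1-/- libraries lies above all WT libraries after LPS 24h (1.5 to 3.35 against -1.26 to -0.66) and restimulation, and the Cxcl11 ratio overlaps throughout.

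Ordered by group mean, Cxcl9 was highest in WT and then Irg1-/- LPS 3h cells, which overlapped, followed by Irg1-/- LPS 24h, WT restimulated, Irg1-/- restimulated and WT LPS 24h cells, in which each neighbour overlapped the next. Cxcl10 went from WT and Irg1-/- LPS 3h, overlapping, through WT restimulated to Irg1-/- restimulated and WT LPS 24h, again overlapping, and then to Irg1-/- LPS 24h, Irg1-/- Unstim. and WT Unstim. cells, each apart from the last. Cxcl11 followed the order of Cxcl10 except that Irg1-/- LPS 3h stood first and WT LPS 24h stood just above the Irg1-/- restimulated cells it overlapped.

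Over the 24 libraries, which share the same treatments, the Pearson correlation of log2 CPM was 0.984 between Cxcl10 and Cxcl11, 0.852 between Cxcl9 and Cxcl10 and 0.840 between Cxcl9 and Cxcl11. Over the 18 LPS libraries the values were 0.982, 0.766 and 0.801. Among 10759 other genes, the profiles most like that of Cxcl9 were those of Cp (0.983), which encodes ceruloplasmin, Cd274 (0.975), which encodes the checkpoint ligand PD-L1, Isg20 (0.972), Usp18 (0.972) and Tarm1 (0.971). For Cxcl10 they were Ccrl2 (0.977), Slc2a6 (0.972), Rhou (0.969), Tnfsf15 (0.969) and Ube2f (0.966). For Cxcl11 they were Slc2a6 (0.967), Lhx2 (0.966), Rapgef2 (0.966), Nt5c3 (0.965) and Parp14 (0.965). Slc2a6 was thus among the 5 nearest genes of both Cxcl10 and Cxcl11, and Cxcl9 shared none of its 5 with them.

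The ligands that induce the chemokines were examined next. Ifnb1, which encodes interferon beta, had 0 counts in all 6 Unstim. libraries and stood at 19.1 ± 13 CPM in WT and 13.2 ± 6.38 CPM in Irg1-/- LPS 3h cells, at least 296-fold and 133-fold higher than the level of 3 counts over the 3 Unstim. libraries together. It was low at LPS 24h, at 0.960 ± 0.999 CPM in WT and 0.0902 ± 0.156 CPM in Irg1-/- cells (30 and 4 reads in all), and its genotype difference there, -3.44 on the log2 scale (SE 1.17), did not pass the threshold (adjusted p = 0.224, edgeR's quasi-likelihood test, Benjamini-Hochberg adjusted) and came with overlapping libraries. In restimulated cells Ifnb1 stood at 1.92 ± 1.59 and 0.684 ± 0.799 CPM. Ifng, which encodes interferon gamma, had 0 counts in every one of the 24 libraries, which allows up to 0.127 to 0.565 CPM depending on the library's depth (3 counts). This includes the LPS 3h libraries, in which Cxcl9 was highest, and the part of interferon gamma was not tested.

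Of the 20 genes of the interferon signalling list (ligands, receptors, kinases, Stat and Irf factors and their inhibitors), 19 could be tested. With LPS 3h, 16 rose and 1 fell in WT cells and 14 rose and 2 fell in Irg1-/- cells (32% and 35.9% of all genes passed). List medians were 2.39 and 1.86 on the log2 scale against -0.18 and -0.20 over all genes. Stat2, which carries the type I interferon signal to the nucleus, rose by 4.13 in WT and by 3.58 in Irg1-/- cells, and Irf7, which amplifies type I interferon, rose by 5.25 and 4.13. Irf1, a direct activator of interferon gamma-responsive genes, rose by 5.10 and 5.09, and Socs1, a feedback inhibitor of the Jak kinases, by 9.33 and 9.55. Irf9, the DNA-binding partner of Stat2, rose by 1.71 in WT cells (adjusted p = 0.0054), and its difference in Irg1-/- cells was 0.83 (adjusted p = 0.164). Irf3, which is activated by phosphorylation, was the gene that fell in WT cells.

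From LPS 3h to LPS 24h, 9 of the 19 fell in WT cells and 12 fell and 1 rose in Irg1-/- cells (32.3% and 35% of all genes passed), with list medians of -0.92 and -1.13 against 0.14 and 0.15 over all genes. On restimulation 3 of 19 passed in WT and 2 of 19 in Irg1-/- cells, where 3.99% and 5.14% of all genes did: in WT cells Jak2 rose and Stat2 and Irf8 fell, and in Irg1-/- cells Jak2 and Socs1 rose. Relative to LPS 3h, 11 of the list were lower in restimulated WT cells, and 11 were lower and 1 higher in Irg1-/- cells (25.5% and 27.2% of all genes passed), with medians of -1.09 and -1.07 against 0.13 and 0.12.

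Between genotypes, Irf1 was the 1 gene of this list that passed the threshold, and it did so at LPS 24h alone, where 0.598% of all genes passed. It stood at 116, 173 and 265 CPM in WT and at 62.8, 76.0 and 93.9 CPM in Irg1-/- LPS 24h libraries (lowest, median and highest), without overlap, a log2 difference of -1.25 (SE 0.29, adjusted p = 0.0314, edgeR's quasi-likelihood test, Benjamini-Hochberg adjusted). It passed in 7 of 14 alternative fits, and of the 6 fits without 1 library it passed in the one without WT replicate 1. After restimulation its difference was -0.59 (adjusted p = 0.625). At LPS 24h the other named factors gave -1.0 for Stat2 (adjusted p = 0.287), -0.34 for Irf7 (0.864), 0.46 for Irf9 (0.848) and -0.58 for Socs1 (0.658), and the list median was -0.26 against -0.01 over all genes. In Unstim., LPS 3h and restimulated cells 0 of 19 passed with edgeR and 0 with DESeq2, and 2, 0 and 3 had an unadjusted p under 0.05. In the same order, 0.0421%, 0.00842% and 0.118% of all genes passed with edgeR.

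The interferon-stimulated gene list holds antiviral effectors and interferon-inducible GTPases, and 18 of its 19 genes could be tested. With LPS 3h, 17 of 18 rose in each genotype (32% and 35.9% of all genes passed), by medians of 7.93 in WT and 7.74 in Irg1-/- cells. Rsad2, Gbp5 and Oasl1 were the highest in WT (9.65, 9.45 and 9.38). At LPS 24h 16 were lower than at LPS 3h and 1, Ifi44, was higher in WT cells, and 17 were lower in Irg1-/- cells. Of all genes 32.3% and 35% passed. The list medians were -2.62 and -3.32 against 0.14 and 0.15 over all genes. Restimulation raised Oasl1 (1.36) and lowered Ifit2 (-1.72) and Isg15 (-1.21) in WT cells and lowered Ifit3 (-1.45) and Mx1 (-1.09) in Irg1-/- cells. The medians of the list for this step were 0.15 and -0.11, and the values of Cxcl10 and Cxcl11 were 1.75 to 2.66.

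Between genotypes, 0 of the 18 passed the threshold in Unstim. or LPS 3h cells (6 and 1 at an unadjusted p under 0.05, and 1 and 0 by DESeq2). Of all genes 0.0421% and 0.00842% passed at these points, and 0.598% at LPS 24h. At LPS 24h 3 were lower in Irg1-/- cells: Rsad2, which encodes viperin (-1.78, SE 0.35, adjusted p = 0.0116), Isg15, a ubiquitin-like protein (-1.54, SE 0.30, adjusted p = 0.0116), and Cmpk2, a mitochondrial nucleotide kinase (-1.47, SE 0.34, adjusted p = 0.0371), all by edgeR's quasi-likelihood test, Benjamini-Hochberg adjusted. Of 14 alternative fits, Isg15 passed in 10, Rsad2 in 9 and Cmpk2 in 6, and all 3 were lost without WT replicate 3 or Irg1-/- replicate 3 and with the compared groups alone. Isg15 stood at 128, 141 and 166 CPM in WT libraries and at 36.4, 53.9 and 59.2 CPM in Irg1-/- libraries, with no overlap. The list median was -0.85 against -0.01 over all genes.

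After restimulation 4 of the 18 were lower in Irg1-/- cells, where 0.118% of all genes passed. Oasl1, which encodes an inhibitor of Irf7 translation, stood at 222, 275 and 291 CPM in WT and 51.9, 59.7 and 66.6 CPM in Irg1-/- libraries, a log2 difference of -2.15 (SE 0.34, adjusted p = 0.00186, edgeR's quasi-likelihood test, Benjamini-Hochberg adjusted) that passed in all 14 alternative fits. Rsad2 (-1.69, SE 0.35), Cmpk2 (-1.67, SE 0.35) and the GTPase gene Gbp2 (-1.49, SE 0.32) passed with adjusted p = 0.0373, 0.0373 and 0.0453 by the same test, and in 6, 4 and 5 of the 14 alternative fits. The list median was -0.92 against -0.03 over all genes, and no gene of the list differed past the threshold in the step from LPS 24h to restimulation (4 at an unadjusted p under 0.05, 0 by DESeq2). For this step 0.00842% of all genes passed. The differences of Cxcl10 and Cxcl11 were below the list median at both times and that of Cxcl9 was above it.

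**Figure D4:**
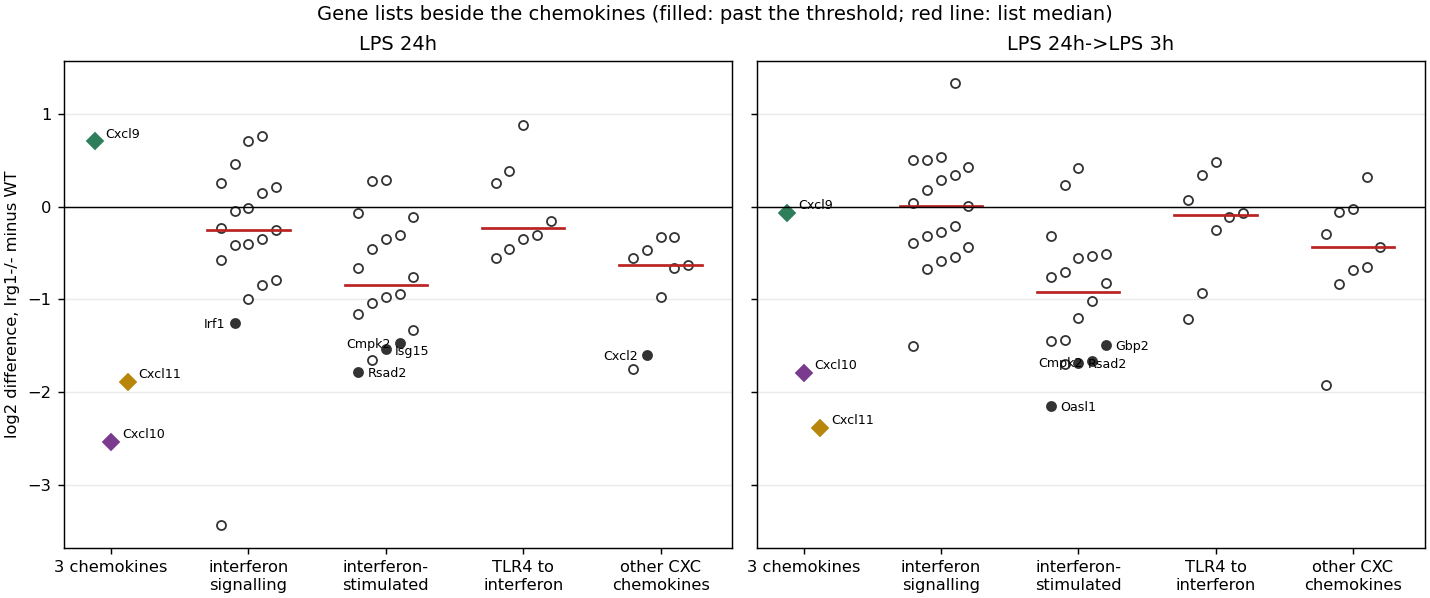
Log2 difference of Irg1-/- minus WT cells after LPS 24h (left) and restimulation (right) for the 3 chemokines and for each tested gene of 4 lists, with filled circles for list genes past the threshold, diamonds for the chemokines, given as a description, and a red line at each list median. The interferon-stimulated list lies mostly below 0 (medians -0.85 and -0.92), with Cxcl10 and Cxcl11 among or below its lowest genes and Cxcl9 near 0 or above.

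The list from Tlr4 to the interferon kinases, 8 genes all tested, was examined as the route by which LPS reaches Ifnb1. With LPS 3h the co-receptor gene Cd14 rose by 3.18 in WT and 2.94 in Irg1-/- cells, Ikbke by 1.79 and 1.92 and Tbk1 by 1.19 and 1.5, while Tlr4 itself fell by 1.49 and 1.21. On restimulation Cd14 rose again in both genotypes (1.63 and 2.02), and the adaptor gene Ticam2 rose in Irg1-/- cells (1.75). Between genotypes, 0 of 8 passed with edgeR and 0 with DESeq2 under any of the 4 treatments, with 0, 0, 1 and 2 at an unadjusted p under 0.05 in Unstim., LPS 3h, LPS 24h and restimulated cells. In the same order, 0.0421%, 0.00842%, 0.598% and 0.118% of all genes passed with edgeR.

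Of 12 other CXC chemokine genes, 9 could be tested. The neutrophil attractants Cxcl1, Cxcl2 and Cxcl3 rose with LPS 3h by 9.78, 9.83 and 9.14 in WT and by 8.95, 8.79 and 7.82 in Irg1-/- cells, beside 9.70 to 12.61 for Cxcl9, Cxcl10 and Cxcl11. Cxcl2 was lower in Irg1-/- cells at LPS 24h (-1.60, adjusted p = 0.0107, edgeR's quasi-likelihood test, Benjamini-Hochberg adjusted) and, unlike Cxcl10 and Cxcl11, overlapped between genotypes after restimulation, at 3792 ± 655 CPM in WT and 4740 ± 820 CPM in Irg1-/- cells. At LPS 24h Cxcl2 passed in 10 of 14 alternative fits and was lost with the compared groups alone and without WT replicate 3 or Irg1-/- replicate 2 or 3. Cxcl2 rose on restimulation by 2.47 in WT and 4.39 in Irg1-/- cells, and Cxcl1 by 3.57 and 3.93.

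The receptor and the proteins that clear or trim the 3 chemokines left few reads. Cxcr3 had group means of 0 to 1.36 CPM, the highest in WT Unstim. cells. Ackr1, a chemokine scavenger, had 0 counts in all 24 libraries, and Ackr3, the atypical receptor of Cxcl11, and Dpp4, the protease that shortens the chemokines, had at most 12 counts in a library. Of the 4 only Cxcr3 had enough reads to be tested, and with edgeR it passed the threshold in no comparison (1 of the 5 genotype comparisons at an unadjusted p under 0.05, 0 by DESeq2). DESeq2 called Cxcr3 for LPS 24h against LPS 3h in WT cells, with group means of 0 and 0.398 CPM.

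Lastly, the neighbours of the cluster were examined. Within 200 kb of the 3 genes, 9 further genes had rows in the table and 7 could be tested. With LPS 3h, 5 of the 7 rose in each genotype, where 32% and 35.9% of all genes passed the threshold in either direction: U90926 went from 0 counts in all Unstim. libraries to 33.2 ± 2.06 CPM in WT and 27.1 ± 7.16 CPM in Irg1-/- cells, and Naaa, Sdad1, Nup54 and the low-count Ppef2 rose as well, the first 3 by 1.15 to 2.41. Sdad1, 38.4 kb from the Cxcl10 start, was the 1 neighbour that passed between genotypes at LPS 24h, where 0.598% of all genes passed. Its direction was opposite to that of Cxcl10. It stood at 16.8, 18.7 and 22.6 CPM in WT and 32.8, 53.4 and 59.4 CPM in Irg1-/- libraries (log2 difference 1.33, SE 0.32, adjusted p = 0.0468, edgeR's quasi-likelihood test, Benjamini-Hochberg adjusted), and it passed in 7 of 14 alternative fits. Nup54, on the far side of Cxcl11, and Scarb2 and Uso1 did not pass.

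**Figure D5:**
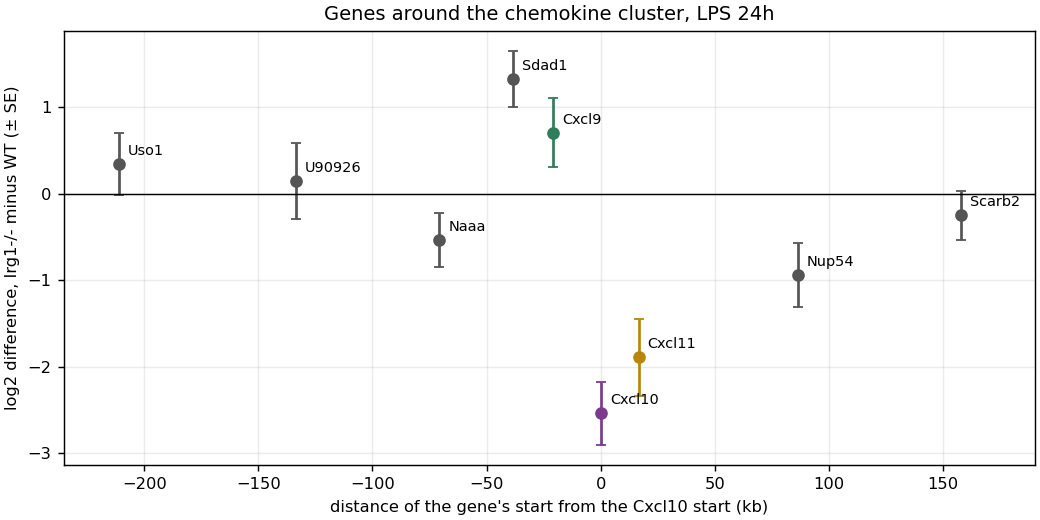
Log2 difference of Irg1-/- minus WT cells at LPS 24h (± 1 standard error) for the genes around the cluster, against the distance of each gene's start from the Cxcl10 start in kb. Cxcl9 (-20.8 kb) and Sdad1 (-38.4 kb) lie above 0, Cxcl10 and Cxcl11 (16.6 kb) lie at -2.54 and -1.89, and Ppef2 is left out since its LPS 24h libraries held almost no reads.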

How the data were processed

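RNA was read in libraries made from polyadenylated RNA and read from the 3′ end, 24 in all. The authors deposited raw counts of reads per gene, not normalized, and aligned reads to mm10 with STAR according to the submitters' processing notes. The counting program, its annotation and its strand setting are not given in the sources used here. Rows that name no gene held 22.1 to 33.7% (no feature), 15.1 to 22.5% (not unique) and 0.254 to 0.441% (ambiguous) of a column's total and were left out. Symbols came from GENCODE M21 (21745 of 22165 identifiers). No 2 libraries of a group agreed within sampling noise. All count columns were used (0 left out).

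From the deposited counts, edgeR 4.0.16 (R 4.3.3) kept 11878 genes by its filter on low counts, scaled by TMM and fitted 1 term per group over all 24 libraries (quasi-likelihood test, Benjamini-Hochberg adjustment over the genes tested, threshold 0.05). Normalized CPM use TMM-scaled library sizes. Standard errors are log2 differences divided by the square root of the test statistic. The steps were tested on simulated data. Alternatives were DESeq2 1.42.0, its size factors in edgeR, TMM without the 20 most counted genes, other filters, only the compared groups, the label prefix (4 values, meaning not stated in the labels) or the replicate number as a term, and leaving out each library. Named genes were the 3 chemokines, Acod1, set members of the interferon and CXCR3 lists, the top 3 each way of other lists among those past the threshold, tested neighbours within 200 kb and the 5 most alike profiles among genes with a mean of at least 10 counts. The members and lists were chosen with earlier results of these data known, and the members, which were in the fit over all genes, are therefore given without p-values and their calls support nothing. Sequences came from RefSeq (GRCm38.p6) and the GRCm38 annotation. A gene of the interferon signalling list is not reported here by name.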

Additional observations from a re-analysis of the deposited data

Results flagged for a closer look

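The genotype difference of Cxcl10 pointed in opposite directions under different treatments, with every library on the side of its group. In Unstim. cells all 3 Irg1-/- libraries were above all 3 WT libraries, by 1.04 on the log2 scale, while after LPS 24h and after restimulation all 3 Irg1-/- libraries were below, with differences of -2.54 and -1.80. The unstimulated values rest on levels of 2.86 to 13.4 CPM. The share of all genes without overlap under a treatment was not counted.

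A further 5 named genes drew attention for the same reason. Apart from the chemokines, only list genes and neighbours already past the threshold in some comparison were searched. All 5 had passed between genotypes at LPS 24h, so that side was given by the choice. The share of all genes with such a change of direction was not counted. Rsad2 had genotype differences of 1.08 in Unstim., -1.78 in LPS 24h and -1.69 in restimulated cells, and Cmpk2 had 0.40, -1.47 and -1.67. Isg15 went from 1.10 to -1.54 and Cxcl2 from 0.70 to -1.60 between Unstim. and LPS 24h cells, and Sdad1, next to Cxcl9 on chromosome 5, went the other way, from -1.06 to 1.33. None of the 6 Unstim. differences passed the threshold (edgeR), and the differences between treatments were not tested. The same Unstim. libraries supply all 6, as do the LPS 24h libraries. Groups of 3 libraries were not searched for single outlying values.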

How the results depend on the processing

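The log2 differences of Cxcl9, Cxcl10 and Cxcl11 moved by less than the spread between cultures in 552 recomputed values and by more in 10, all with 1 library left out. Of the other named genes 806 values kept their direction and call and 110 lost the call, with none reversed. The Cxcl9 and Cxcl11 differences in Unstim. cells were not fitted with the compared groups alone, since the filter on low counts left both genes out. With no filter on low counts, the Unstim. difference of Cxcl11 passed the threshold.

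Leaving out 1 library at a time, LPS 3h against Unstim. ranged from 10.24 to 11.49 for Cxcl9 in Irg1-/- cells, from 10.66 to 11.53 for Cxcl10 in WT cells, and for Cxcl11 from 11.54 to 13.55 in WT and 9.37 to 10.72 in Irg1-/- cells. The Unstim. genotype difference ranged from 1.02 to 2.27 for Cxcl9, 0.74 to 1.61 for Cxcl10 and 1.51 to 4.08 for Cxcl11. In Irg1-/- cells Cxcl10 ranged from -8.11 to -7.49 for LPS 24h against LPS 3h and from 2.49 to 3.13 for restimulation against LPS 24h. Counts of all genes past the threshold ranged from 266 to 510 (WT) and 370 to 442 (Irg1-/-) for restimulation against LPS 24h, and between genotypes from 0 to 5 (Unstim.), 1 to 7 (LPS 3h), 9 to 165 (LPS 24h), 4 to 30 (restimulated) and 0 to 25 (the difference in the step). The interferon signalling list gave 0 to 1 at LPS 24h. Of the chemokine values that moved, those of Cxcl10 and Cxcl11 in WT Unstim. cells rested on WT Unstim. replicate 3, those in Irg1-/- Unstim. cells on replicate 1 (Cxcl9) or 3 (Cxcl11), and those of Cxcl10 at LPS 24h on Irg1-/- LPS 24h replicate 1. The genotype count at LPS 24h was 165 without WT replicate 1 and 9 to 30 without WT replicate 3 or any of the Irg1-/- libraries, and after restimulation it was 30 without WT replicate 1.

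Counts over all genes otherwise changed as follows, and the cause was not tested. For restimulation against LPS 24h in WT cells, DESeq2 called 766, no filter 749 and the compared groups alone 109, and in Irg1-/- cells the last called 1080. Between genotypes in Unstim., LPS 24h and restimulated cells, the counts were 31, 215 and 106 with DESeq2, 39, 246 and 133 with no filter and 0, 3 and 4 with the compared groups alone. At LPS 3h they were 8 with DESeq2, 32 with no filter and 3 with the prefix term. For the difference in the step they were 55 with DESeq2, 170 with no filter, 7 with the prefix term and 0 with the compared groups alone, DESeq2 size factors, TMM without the top 20 or a mean of at least 10 counts. The last 2 gave 9 for restimulated cells. The prefix term gave 12 at LPS 24h and 6 after restimulation between genotypes, and in Irg1-/- cells 2361 for LPS 3h against Unstim., 1771 for LPS 24h against LPS 3h and 1407 for restimulation against LPS 3h. In the interferon signalling list, restimulation of WT cells changed 5 genes with DESeq2, 6 with no filter and 0 with the compared groups alone, restimulation of Irg1-/- cells 4 with either of the last 2, and the genotype at LPS 24h 2 with DESeq2 or no filter and 0 with the compared groups alone or the prefix term. With no filter 1 differed after restimulation. The prefix term called 8 in Irg1-/- cells for LPS 24h against LPS 3h.

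With the replicate block, the genotype calls were 3 in Unstim. cells and 0 for the difference in the step, and the interferon list gave 5 for restimulation of WT cells. The replicate numbers did not pair the libraries: in 0 of 12 comparisons did all 3 same-numbered pairs correlate above 0.1, with values from -0.10 to 0.34 over 36 pairs.

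Depth limits the unstimulated values most: Cxcl9 and Cxcl11 had at most 23 reads in an Unstim. library. Libraries and not animals are the stated replicates, 3 per group leave few degrees of freedom, and the label prefix cannot be told apart from the group for LPS 3h against Unstim. and LPS 24h against LPS 3h in Irg1-/- cells, which share no prefix. Between genotypes the values within a prefix rest on 1 WT library, except in Unstim. cells, where all 6 libraries share prefix 4.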

Other observations

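In Unstim. cells Rsad2 stood at 63.7 ± 0.822 and 134 ± 15.5 CPM in WT and Irg1-/- libraries, and the median log2 difference (Irg1-/- minus WT) of the interferon-stimulated list was 0.57 against 0.01 over all genes.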
